A study of Mus musculus with 18 samples.

Results

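The genes described here are 41 genes of the cell cycle and of DNA replication, taken by gene symbol from the 36172 genes in the count table of a translating ribosome affinity purification (TRAP) experiment on mouse brain. They were read in 2 groups, 17 genes that copy DNA (replication genes) and 24 genes that segregate chromosomes or drive and mark division (mitosis genes). Of these, 15 replication and 20 mitosis genes exceeded 20 normalised counts in every library of at least 1 group and were tested among 14803 genes. The other 6 (Tk1, Cdc6, Ccnb1, Bub1, Aurkb and Ube2c) were too low and are given by their levels. All 41 symbols were found once.

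The animals were Cx3cr1-cre/ERT2+; NuTRAP+ mice. Their cre recombinase is under control of Cx3cr1, a receptor gene of microglia and other mononuclear phagocytes. Tamoxifen lets the cre recombine the NuTRAP construct, which then yields a ribosomal protein tagged with GFP. Mice received 5 mg/kg lipopolysaccharide (LPS), a bacterial outer membrane component, or phosphate-buffered saline (PBS) by intraperitoneal injection, and brain was taken 24 h later. All 4 groups therefore share the genotype and the tamoxifen, and the labels give no age. Input is RNA of the lysate of a hemisected brain, and the positive fraction is RNA on ribosomes pulled down with an antibody to GFP from the same lysate. The groups were Input PBS (n = 4 animals, 2 female and 2 male), Input LPS (n = 4, 3 female and 1 male), Positive PBS (n = 4, 2 female and 2 male) and Positive LPS (n = 5, 4 female and 1 male), and each library is named by its group and animal number.

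These 17 libraries held from 22968834 to 35123335 counts, and the 271 input, with only 1250, was not used. The 8 microglial markers summed to between 140441 and 174713 normalised counts in Positive PBS and to between 8283 and 10539 in Input PBS. Neuronal RNA was not removed from the positive fraction, since the 7 neuronal markers summed to between 135426 and 166963 in Positive PBS against 150773 to 160712 in Input PBS. The positive fraction was thus enriched for microglial RNA and not pure. In such bulk samples, more cells of a type and more RNA per cell cannot be told apart.

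A cell that commits to division first switches on the genes that load and fire replication origins and supply nucleotides, under the E2F transcription factors. The MCM helicase, Mcm2 to Mcm7, is loaded on origins, and with Cdc45 and the GINS complex it becomes the active helicase that opens the double helix. Later, as cells approach mitosis, cyclins A and B, Cdk1, the Aurora and Polo kinases, kinesins and kinetochore proteins rise, and many of their genes carry a short promoter element called the cell cycle genes homology region (CHR). Microglia divide rarely in the healthy adult brain and are able to proliferate when activated.

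The promoters of both gene groups are shown first because their letters do not depend on the counts. RefSeq windows (build GRCm38.p6, 250 bases before and 50 bases after the start site) were found for 34 of the 41 genes. The CHR letters TTTGAA stood on either strand in 14 of 20 mitosis windows (70%), in 2 of 14 replication windows (14.3%) and in 16.2% of all 18620 windows. E2F-like letters were also searched on both strands, and these were the run TTTCCCG with its variants TTTCGCG as well as the run TTTGCCG and the run TTTGGCG. At least 1 of them stood in 5 of 14 replication windows (35.7%), in 4 of 20 mitosis windows (20%) and in 8.11% of all windows. Among windows of tested genes the share was 10.7%. The Cdc6 window, with a match, and the E2f1 window, without one, lie 262 and 426 bases downstream of the 5′ end of their gene models. Mcm2 held the CHR letters and no E2F-like match. The letters CCAAT, read on both strands, were common in both groups, with 9 of 14 replication and 17 of 20 mitosis windows against 39% of all windows. A match is a run of letters and not a shown binding site.

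Printed here are 5 windows, 5′ to 3′ on the strand of the gene. The first 2 are for the MCM subunits with the largest LPS response and the other 3 for mitosis genes. Of these 3, Kif23 rose after LPS in the positive fraction, while Top2a and Cdk1 did not pass the test. Capitals mark E2F-like and CHR letters. Mcm5 lies on the plus strand (chr8:75109259-75109558) and Mcm6 on the minus strand (chr1:128359656-128359955), and in each of them 2 E2F-like matches on opposite strands overlap in 1 capital run.
Mcm5: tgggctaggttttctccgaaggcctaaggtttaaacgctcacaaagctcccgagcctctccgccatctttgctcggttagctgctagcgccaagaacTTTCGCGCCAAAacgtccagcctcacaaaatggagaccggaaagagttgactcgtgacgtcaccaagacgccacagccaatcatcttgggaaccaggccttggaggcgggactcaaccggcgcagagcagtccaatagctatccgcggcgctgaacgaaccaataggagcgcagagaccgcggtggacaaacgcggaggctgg
Mcm6: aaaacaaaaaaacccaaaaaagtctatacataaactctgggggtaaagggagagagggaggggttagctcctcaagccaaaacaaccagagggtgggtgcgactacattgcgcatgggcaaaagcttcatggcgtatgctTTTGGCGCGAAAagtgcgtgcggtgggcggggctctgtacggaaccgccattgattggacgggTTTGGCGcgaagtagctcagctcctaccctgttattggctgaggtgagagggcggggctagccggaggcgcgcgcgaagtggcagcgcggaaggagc

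Top2a (chr11:99024140-99024439), Cdk1 (chr10:69352863-69353162) and Kif23 (chr9:61946750-61947049) all lie on the minus strand. Each holds the CHR letters, with 2 matches in Top2a and in Cdk1, and Cdk1 also holds 1 E2F-like match.
Top2a: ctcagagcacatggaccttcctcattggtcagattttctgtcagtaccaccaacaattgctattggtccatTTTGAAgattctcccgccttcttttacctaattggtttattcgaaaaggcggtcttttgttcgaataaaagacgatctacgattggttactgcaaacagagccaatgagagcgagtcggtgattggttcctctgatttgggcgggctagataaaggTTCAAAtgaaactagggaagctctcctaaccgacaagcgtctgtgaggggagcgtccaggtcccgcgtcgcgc
Cdk1: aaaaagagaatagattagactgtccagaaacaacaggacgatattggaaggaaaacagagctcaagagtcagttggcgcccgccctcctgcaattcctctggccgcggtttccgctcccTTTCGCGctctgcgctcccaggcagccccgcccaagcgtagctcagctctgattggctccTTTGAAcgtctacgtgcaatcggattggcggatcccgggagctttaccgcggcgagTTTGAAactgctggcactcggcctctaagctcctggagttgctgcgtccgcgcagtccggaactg
Kif23: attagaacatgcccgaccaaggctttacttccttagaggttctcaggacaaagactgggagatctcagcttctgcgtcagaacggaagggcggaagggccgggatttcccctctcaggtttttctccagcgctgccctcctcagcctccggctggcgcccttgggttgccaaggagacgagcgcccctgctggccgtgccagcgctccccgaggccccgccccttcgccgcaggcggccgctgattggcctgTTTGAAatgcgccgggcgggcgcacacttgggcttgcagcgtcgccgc

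LPS raised most of the replication genes in the positive fraction. Among the 15 tested, 11 rose, none fell and 4 were not called, where a call is an adjusted p under 0.05 (edgeR quasi-likelihood test, Benjamini-Hochberg over 14803 genes) with a change of over 25%. Over all tested genes 19% were called higher in the same contrast and 33.8% were called in either direction. The median log2 fold change of the 15 was 0.76, against 0.01 over all tested genes. The called genes were the MCM subunits Mcm2 to Mcm7, Gins2, Cdc45, Pcna, Rrm1 and E2f1. Leaving out any 1 library left 11 or 12 calls.

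All 6 MCM subunits rose, and in each of them every Positive LPS library lay above every Positive PBS library. Over all tested genes, 17.1% had such groups without overlap in that direction. Mcm6 held 413, 404, 414 and 399 normalised counts in Positive PBS and 952, 903, 731, 1071 and 1048 in Positive LPS (animals 266, 267, 270, 271 and 507). The PBS libraries were close to each other and all 5 LPS libraries were far above them, with a log2 fold change of 1.21 (SE 0.12, 95% interval 0.96 to 1.46, edgeR adjusted p = 4.05e-07).

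Mcm5 held 309, 359, 388 and 317 in Positive PBS and 798, 860, 604, 642 and 955 in Positive LPS. Its lowest LPS library, animal 270, was well above the highest PBS library, and the log2 fold change was 1.17 (SE 0.13, edgeR adjusted p = 1.93e-06). Mcm2 held 268, 372, 321 and 283 against 690, 673, 479, 639 and 873, a log2 fold change of 1.11 (SE 0.17, edgeR adjusted p = 4.46e-05).

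Mcm3 held 499, 586, 548 and 562 in Positive PBS and 1142, 1087, 696, 1075 and 1357 in Positive LPS. Animal 270 was again the lowest LPS library, as it was for Mcm2, Mcm5, Mcm6 and Mcm7 but not for Mcm4. The log2 fold change of Mcm3 was 0.96 (SE 0.14, edgeR adjusted p = 3.8e-05), that of Mcm7 was 0.91 (SE 0.10, edgeR adjusted p = 2.02e-06) and that of Mcm4 was 0.75 (SE 0.12, edgeR adjusted p = 1.01e-04). The microRNAs Mir25, Mir93 and Mir106b lie within Mcm7 on its strand but averaged under 2 counts each.

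**Figure D1:**
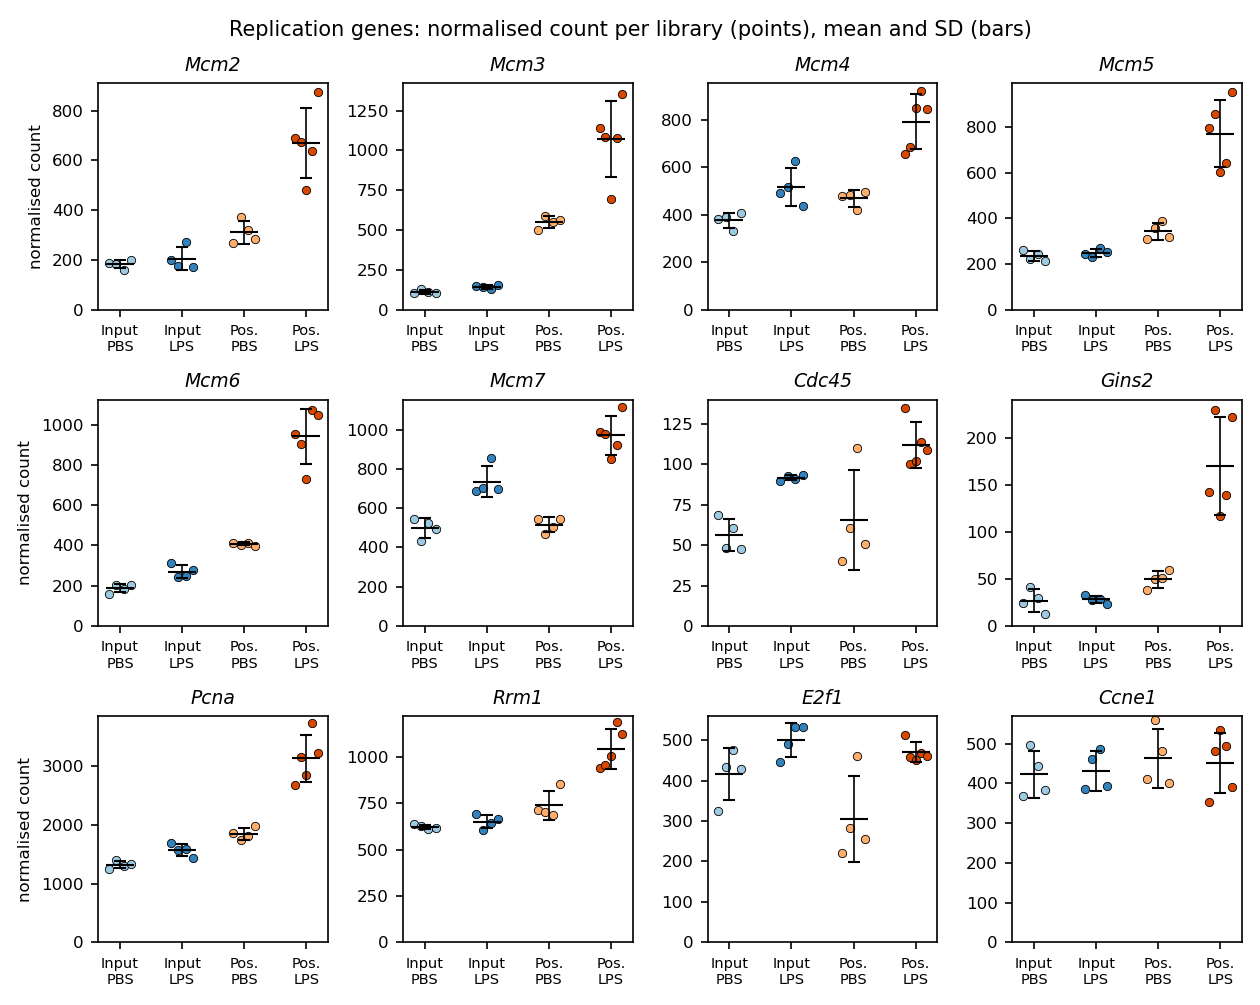
Normalised counts (y axis, linear, from 0) of 12 replication genes in each library (points) of the 4 groups (x axis), with the mean and SD of each group as bars. In Mcm6 the 5 Positive LPS libraries lie between 731 and 1071 and all other libraries at or below 414, and Ccne1 is shown as a gene that was not called.

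Per kilobase of exon, the subunits were at unlike levels in input and closer to each other in the positive fraction. In Input PBS, Mcm7 had the highest mean, 169 ± 16.8 normalised counts per kilobase (SD, n = 4), and Mcm3 the lowest, 36.3 ± 3.89 (SD, n = 4). In Positive LPS, Mcm3 had the highest mean, 353 ± 78.6 (SD, n = 5), followed by Mcm7 at 328 ± 33.5 (SD, n = 5), and these 2 ranges overlap. The other 4 subunits had means from 199 to 223 per kilobase in Positive LPS, with overlapping ranges.

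Of the partners that turn the MCM ring into a working helicase, Gins2 and Cdc45 were called higher, while Gins3, another GINS subunit, was not called (-0.15, edgeR adjusted p = 0.433). Gins2, a subunit of the GINS complex, held 38.1, 50.4, 50.9 and 59.9 normalised counts in Positive PBS and 143, 230, 117, 140 and 223 in Positive LPS. These groups do not overlap, and the log2 fold change of 1.78 (SE 0.28, 95% interval 1.19 to 2.36, edgeR adjusted p = 6.27e-05) was the largest among the tested replication genes. Gins2 overlaps Gse1 on the opposite strand, as Tk1, Ccne2, Ccna2, Cdc20, Kif20a and Nusap1 overlap other genes, and reads were aligned by strand.

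Cdc45, the remaining part of the helicase, held 40.3, 60.9, 110 and 51 in Positive PBS and 135, 100, 102, 114 and 109 in Positive LPS. The groups overlap, as 1 PBS library, animal 273, reached the LPS range. The log2 fold change was 0.78 (SE 0.23, edgeR adjusted p = 0.0116), and leaving out animals 506 and 507 gave 0.69 with an adjusted p of 0.0813.

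Pcna, the sliding clamp that holds DNA polymerase on its template, was the most abundant of the 41 genes in counts. It held 1860, 1742, 1811 and 1988 in Positive PBS and 2687, 3162, 2855, 3730 and 3232 in Positive LPS. No LPS library came near the PBS range, and the log2 fold change was 0.76 (SE 0.09, edgeR adjusted p = 1.93e-06).

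Of the genes for nucleotide supply, only Rrm1 was called. It encodes the large subunit of ribonucleotide reductase, and it held 713, 702, 686 and 855 in Positive PBS and 942, 959, 1007, 1191 and 1122 in Positive LPS, a log2 fold change of 0.50 (SE 0.09, edgeR adjusted p = 2.82e-04). Rrm2, the partner subunit whose level follows S phase, stayed between 23.5 and 49.2 in all 9 positive libraries, with a log2 fold change of 0.20 (95% interval -0.32 to 0.72). Tyms, thymidylate synthase, had a log2 fold change of 0.33 (95% interval 0.02 to 0.65, edgeR adjusted p = 0.084) and was called without Positive PBS 268 (0.45, edgeR adjusted p = 0.0305) or without Positive LPS 270 (0.42, edgeR adjusted p = 0.0262).

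Tk1, thymidine kinase, missed the filter, with 19 to 37.9 normalised counts in Positive PBS and 12.3 to 39.8 in Positive LPS. Cdc6, which loads the MCM ring, was at 3.81 to 15.2 and at 5.56 to 25.7. A fit without a filter gave Tk1 a log2 fold change of -0.22 (95% interval -0.92 to 0.47) and Cdc6 one of 0.56 (95% interval -0.59 to 1.70), and neither was called.

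E2f1, an activating E2F factor, held 220, 283, 460 and 255 in Positive PBS and 513, 459, 451, 469 and 462 in Positive LPS. The LPS libraries lay close together, and 1 PBS library, animal 273, lay inside their range. The log2 fold change was 0.63 (SE 0.17, edgeR adjusted p = 0.00582), and leaving out animals 506 and 507 gave 0.56 with an adjusted p of 0.0562. The E-type cyclins, which partner Cdk2 at the start of S phase, were not called, with log2 fold changes of -0.04 for Ccne1 (95% interval -0.34 to 0.26) and 0.09 for Ccne2 (95% interval -0.27 to 0.45).

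Among the mitosis genes, few were called in the positive fraction, in either direction. Of the 20 tested, 4 rose (Kif23, Bub1b, Cenpe and Aurka), 1 fell (Cenpf) and 15 were not called. This makes 5 of 20 against 33.8% of all tested genes (19% higher and 14.9% lower). The 4 of 20 that rose are near the share of 19%. Their median log2 fold change was 0.14. The count of 5 fell to 2 without Positive PBS 268 or Positive LPS 271, and to 3 without Positive PBS 272.

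The markers most used for dividing cells were low and were not called. Mki67, the Ki-67 antigen, held 58.8, 30.5, 31.3 and 40.8 normalised counts in Positive PBS and 35.5, 21.8, 41.7, 44.2 and 16.1 in Positive LPS. The groups overlap, and the log2 fold change was -0.34 (95% interval -1.04 to 0.36, edgeR adjusted p = 0.431). Top2a, the topoisomerase that untangles sister chromosomes, held 66.4, 41.9, 49.6 and 51 against 49, 49.7, 55.6, 82.8 and 76.4, a log2 fold change of 0.27 (95% interval -0.25 to 0.78).

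Cdk1, the kinase that drives entry into mitosis, held 39.2, 46.6, 35.3 and 48.4 in Positive PBS and 50.2, 36.3, 44.5, 75.1 and 50.3 in Positive LPS. The groups overlap, and the log2 fold change was 0.27 (95% interval -0.32 to 0.86). Its cyclins were not called either, with log2 fold changes of 0.31 for Ccna2 and -0.06 for Ccnb2, and Ccnb1 was below the filter at 10.4 to 26.6 in Positive PBS and 8.29 to 28.7 in Positive LPS. The 95% intervals reached up to 1.00 for Ccna2 and 0.64 for Ccnb2.

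The remaining genes that were not called had log2 fold changes from -0.45 to 0.45. Plk1, the Polo kinase, and Birc5, survivin, both stood at -0.03, Cenpa, the centromeric histone, at 0.13, and Tpx2, a spindle assembly factor, at 0.15. The kinesins Kif11 and Kif20a stood at -0.31 and -0.18, and the microtubule bundling gene Prc1 at -0.11. Cdc20, an activator of the anaphase-promoting complex, stood at 0.45 (edgeR adjusted p = 0.179), Melk at 0.35, and Nusap1, a spindle protein, at -0.45 (edgeR adjusted p = 0.084). Nusap1 is the one among these whose 2 groups do not overlap, with 44.4 to 59.9 in Positive PBS and 34.2 to 43.1 in Positive LPS, and 13% of all tested genes had groups apart in that direction.

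Kif23, a kinesin of the central spindle, held 33.8, 20.9, 31.3 and 44.6 in Positive PBS and 96.8, 60.1, 71.4, 125 and 71.4 in Positive LPS. All 5 LPS libraries exceeded all PBS libraries, and the log2 fold change was 1.38 (SE 0.31, 95% interval 0.74 to 2.03, edgeR adjusted p = 0.00157). Bub1b, a spindle checkpoint kinase, held 106, 103, 81 and 84.1 against 322, 152, 287, 218 and 193. These groups do not overlap either, and the log2 fold change was 1.32 (SE 0.22, edgeR adjusted p = 1.06e-04).

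Aurka, the Aurora kinase of the centrosome, held 66.4, 81.9, 87.5 and 76.4 in Positive PBS and 93.1, 132, 111, 144 and 130 in Positive LPS. The gap between the groups was small, the log2 fold change was 0.64 (SE 0.22, edgeR adjusted p = 0.0265), and the call was lost without Positive PBS 268 (0.57, edgeR adjusted p = 0.0726), Positive LPS 271 (0.58, edgeR adjusted p = 0.0573) or Positive PBS 506 (0.63, edgeR adjusted p = 0.0556). Aurkb, the Aurora kinase of the chromosomal passenger complex, missed the filter with 5.22 to 14.3 in Positive PBS and 14.4 to 55.3 in Positive LPS. A fit without a filter called it (log2 fold change 1.36, SE 0.44, edgeR adjusted p = 0.0252). The 55.3 is animal 507, and the other Positive LPS libraries held 14.7, 21.8, 23.2 and 14.4.

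The other low mitosis genes were Bub1, at 9.14 to 33.1 in Positive PBS and 7.35 to 16.7 in Positive LPS, and Ube2c, at 17 to 27.6 and 6.04 to 19.9. Both groups overlap in each gene, and neither gene was called in the fit without a filter.

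Cenpe, a kinetochore motor, was high in a single library. It held 50.1, 38.1, 20.9 and 56 in Positive PBS and 260, 47.7, 53.8, 97.2 and 40.2 in Positive LPS, where 260 is animal 266. The log2 fold change was 1.254 (SE 0.47, edgeR adjusted p = 0.0414) and fell to 0.53 (edgeR adjusted p = 0.212) without that library, and with the animal as a replicate block in limma it was 0.89 (limma adjusted p = 0.167). A limma fit without the block gave 0.97 (limma adjusted p = 0.0825). It also handled the counts in another way, so 0.89 and 0.97 differ by more than the block. The log2 fold change was 1.04 with sex as a covariate (edgeR adjusted p = 0.0735) and 1.24 in a fit of only the libraries compared (edgeR adjusted p = 0.102). None of these called Cenpe. The call was also lost without Positive PBS 268 (1.36, edgeR adjusted p = 0.0547), Positive LPS 271 (1.26, edgeR adjusted p = 0.0581), Positive PBS 272 (1.21, edgeR adjusted p = 0.0914) or Positive PBS 273 (1.04, edgeR adjusted p = 0.118).

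Cenpf, another kinetochore gene, held 47.9, 51.4, 31.3 and 35.7 in Positive PBS and 30.6, 22.8, 23.2, 15.5 and 22.1 in Positive LPS. The highest LPS library was just below the lowest PBS library, and the log2 fold change was -0.87 (SE 0.29, edgeR adjusted p = 0.0222). The call was lost without Positive PBS 268 (-0.80, edgeR adjusted p = 0.0557), Positive LPS 271 (-0.76, edgeR adjusted p = 0.0555) or Positive PBS 272 (-0.75, edgeR adjusted p = 0.0771).

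**Figure D2:**
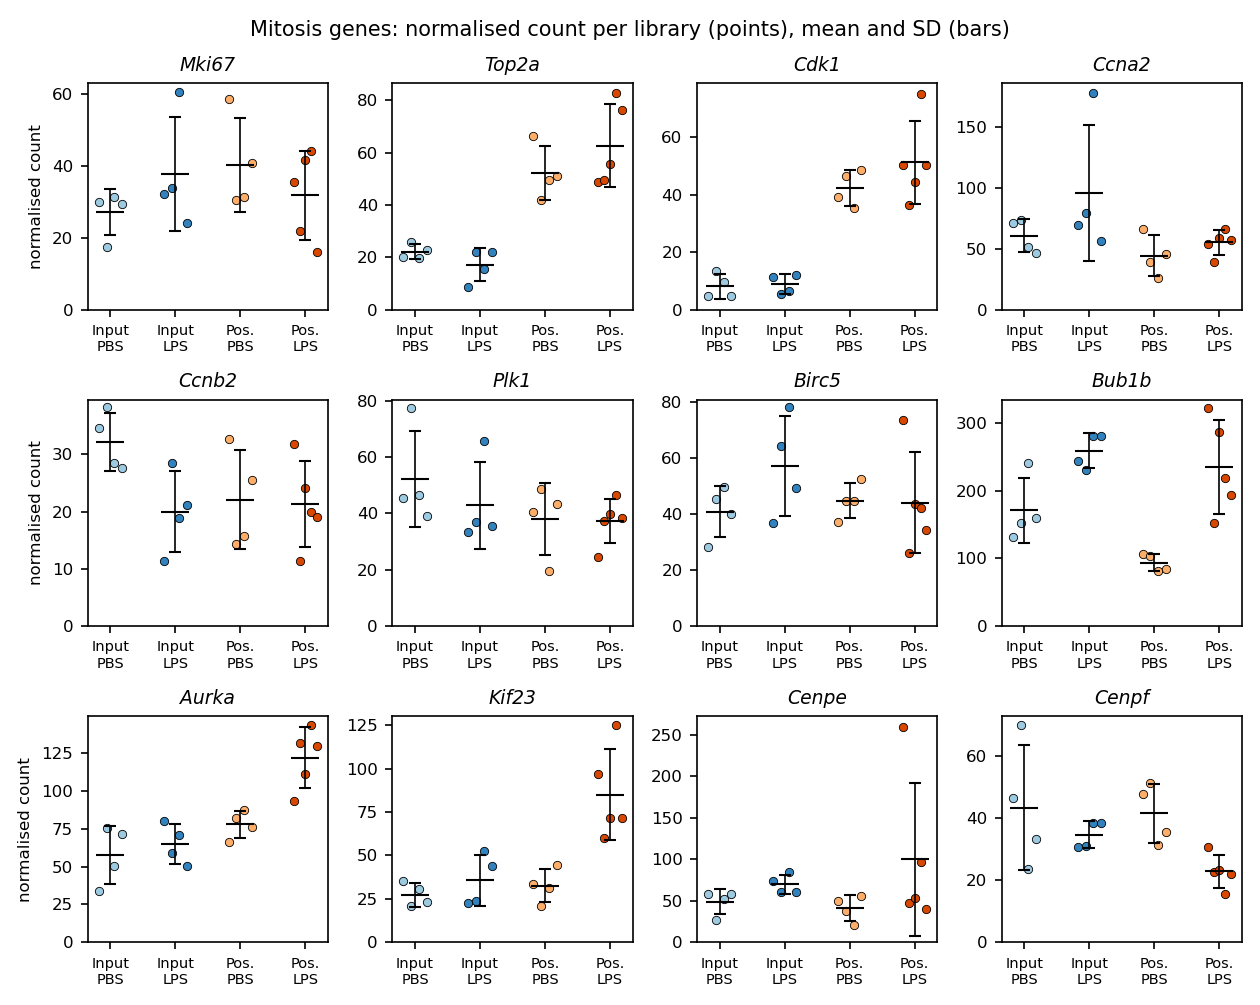
Normalised counts (y axis, linear, from 0) of 12 mitosis genes in each library (points) of the 4 groups (x axis), with the mean and SD of each group as bars. Mki67 overlaps between all groups, Top2a and Cdk1 are higher in both positive groups than in input, Kif23 and Bub1b are higher in Positive LPS than in Positive PBS, and Cenpe has 1 library at 260.

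Read animal by animal, the median of the replication genes lay above the PBS mean in each LPS positive library. The median log2 difference of the 15 tested genes from the Positive PBS mean was 0.81 in animal 266, 0.71 in 267, 0.63 in 270, 0.89 in 271 and 0.82 in 507. The same median over the 20 tested mitosis genes was 0.18, -0.07, 0.13, 0.30 and 0.12. The lowest of the first 5 values was above the highest of the second 5, which is a description of libraries that share a PBS reference.

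**Figure D3:**
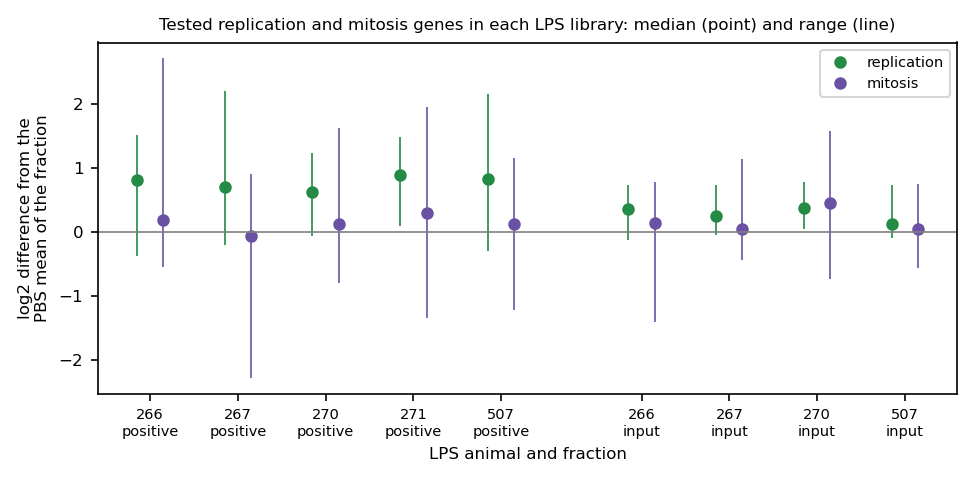
Log2 difference of each tested gene from the PBS mean of its fraction (y axis) in each LPS library (x axis, animal and fraction), drawn as the median (point) and the range (line) of the 15 replication and 20 mitosis genes. Replication medians lie between 0.63 and 0.89 in the positive fraction, and mitosis medians between -0.07 and 0.30.

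Brain input showed less of the same change. Of the 15 tested replication genes 3 rose after LPS, Mcm7, Mcm6 and Mcm4, and none fell, while 7.16% of all tested genes were called higher and 5.26% lower there. The median log2 fold change was 0.27, against 0.00 over all tested genes, and all 15 values were above 0, from 0.03 to 0.70. Leaving out any 1 library left 2 to 4 calls.

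Mcm7 held 545, 432, 527 and 492 normalised counts in Input PBS and 687, 704, 855 and 699 in Input LPS, a log2 fold change of 0.56 (SE 0.11, edgeR adjusted p = 0.00153). Mcm6 held 160, 204, 182 and 204 against 310, 241, 247 and 280, a log2 fold change of 0.52 (SE 0.13, edgeR adjusted p = 0.00925), which was not called without animals 506 and 507 (0.55, edgeR adjusted p = 0.0559). Mcm4 held 380, 391, 331 and 405 against 492, 517, 625 and 435, a log2 fold change of 0.46 (SE 0.13, edgeR adjusted p = 0.0235). None of these 3 pairs of groups overlaps, where 12.6% of all tested genes stood apart in that direction, and the Mcm4 call was lost without Input LPS 270 (0.35, edgeR adjusted p = 0.0948) or Input PBS 273 (0.40, edgeR adjusted p = 0.0841).

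Cdc45 had the largest value in input, a log2 fold change of 0.70 (SE 0.24, edgeR adjusted p = 0.0579), and was not called although its groups do not overlap, with 47.6 to 68.4 in Input PBS and 90 to 93.7 in Input LPS. Mcm5 and Gins2, which rose in the positive fraction, had log2 fold changes of 0.08 (95% interval -0.21 to 0.38) and 0.07 (95% interval -0.59 to 0.73) in input.

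None of the 20 mitosis genes was called in input by the edgeR quasi-likelihood test, against 12.4% of all tested genes called in either direction. An unadjusted p under 0.05 was reached by 3 (Bub1b, Melk and Ccnb2). Melk passed the filter only through Input LPS and Ccnb2 only through Input PBS, in each case the group where it is high. Among the 20, DESeq2 called 1 and limma called 0. The 1 gene was Bub1b, at a log2 fold change of 0.60 (DESeq2 adjusted p = 0.0452), and edgeR gave it 0.60 with an adjusted p of 0.0738. Bub1b was also called by edgeR without Input PBS 273 (0.81, adjusted p = 0.0217) and without Positive LPS 267 (0.60, adjusted p = 0.048).

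**Figure D4:**
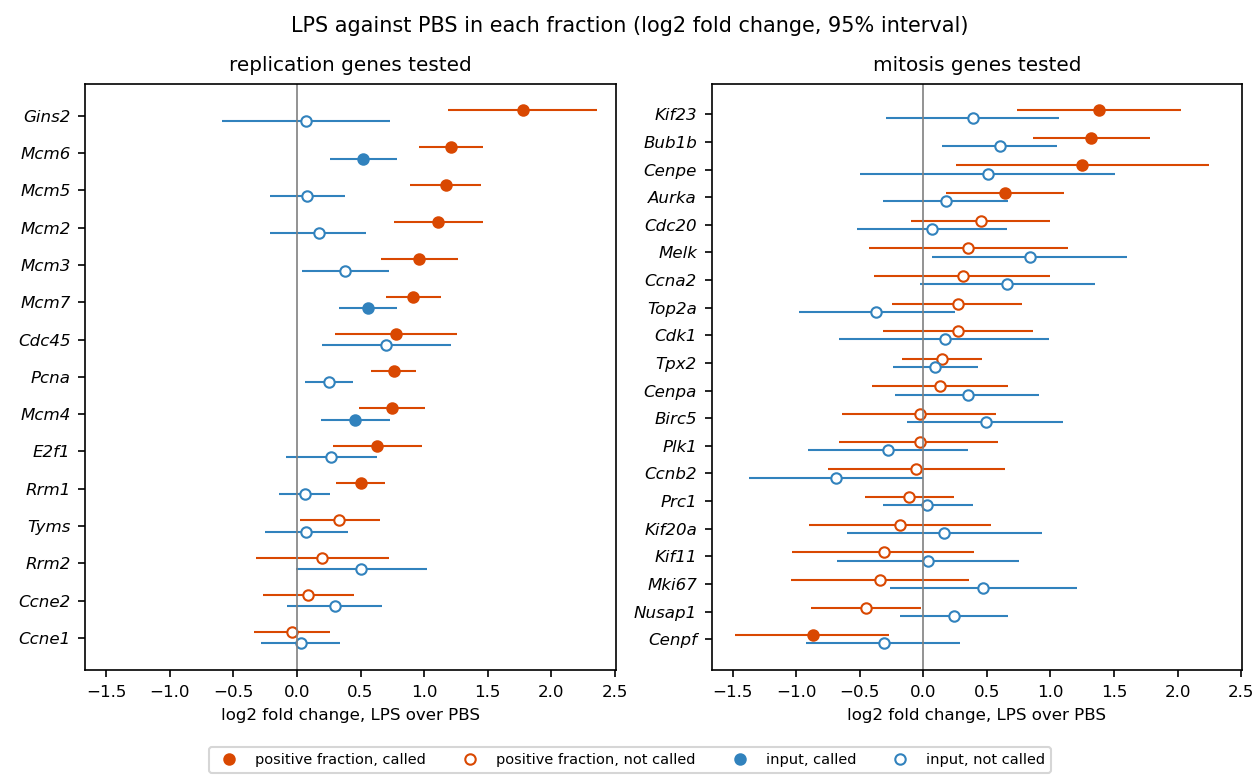
Log2 fold change, LPS over PBS (x axis), with its 95% interval for each of the 15 replication genes (left) and 20 mitosis genes (right) tested, in the positive fraction (orange) and input (blue). Filled points are called genes, 11 replication and 5 mitosis genes for ribosome-bound RNA, with 3 replication genes and 0 mitosis genes called in input.

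The difference of the LPS effect between the fractions was tested as an interaction. For 5 of the 15 replication genes the LPS effect was larger in the positive fraction than in input, and for none was it smaller, against 5.46% of all tested genes called larger and 1.42% called smaller. The differences in log2 fold change were 1.71 for Gins2 (SE 0.42, edgeR adjusted p = 0.0166), 1.08 for Mcm5 (SE 0.19, edgeR adjusted p = 0.00188), 0.94 for Mcm2 (SE 0.24, edgeR adjusted p = 0.0234), 0.68 for Mcm6 (SE 0.17, edgeR adjusted p = 0.0207) and 0.51 for Pcna (SE 0.12, edgeR adjusted p = 0.0161). With the animal as a replicate block, Mcm3 (0.55, edgeR adjusted p = 0.0333) and Rrm1 (0.39, edgeR adjusted p = 0.0396) were called as well.

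The Mcm2 call was lost without Input LPS 267 (0.87, edgeR adjusted p = 0.0513), Positive PBS 268 (0.87, edgeR adjusted p = 0.0523), Positive PBS 506 (0.90, edgeR adjusted p = 0.0501) or Input LPS 507 (0.86, edgeR adjusted p = 0.0598). The Gins2 call was lost without Input PBS 272 (1.43, edgeR adjusted p = 0.0508). Mcm4, Mcm7 and Cdc45, by contrast, had differences of 0.30, 0.35 and 0.07 that were not called.

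None of the 20 mitosis genes was called for this difference by edgeR, with 3 at an unadjusted p under 0.05 (Kif23, Bub1b and Nusap1), against 6.88% of all tested genes. DESeq2 and limma each called 0 as well. Kif23 had the largest difference, 1.00 (SE 0.45, edgeR adjusted p = 0.222).

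The positive fraction was compared with input to show how far these RNAs were enriched or depleted in it. In PBS animals 6 of 15 replication genes were higher in the positive fraction and 1 was lower, against 21% and 18.8% of all tested genes (39.8% in either direction). Mcm3 stood apart, with 103, 127, 109 and 101 normalised counts in Input PBS and 499, 586, 548 and 562 in Positive PBS, a log2 difference of 2.32 (SE 0.16, edgeR adjusted p = 1.35e-09). The other 5 were Mcm6 at 1.12, Gins2 at 0.89, Mcm2 at 0.77, Mcm5 at 0.55 and Pcna at 0.49. Mcm7 was level between the fractions at 0.05 (95% interval -0.18 to 0.28).

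Gins2 was not called in PBS animals without Input PBS 268 (0.85, edgeR adjusted p = 0.0595), Input PBS 506 (0.65, edgeR adjusted p = 0.08) or Positive PBS 506 (0.79, edgeR adjusted p = 0.0673). The gene that was lower was E2f1, at a log2 difference of -0.45 (SE 0.18, edgeR adjusted p = 0.0414), a call that 8 of 17 single-library omissions removed. With the animal as a replicate block Tyms was lower too (-0.38, edgeR adjusted p = 0.0372).

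In LPS animals 9 of 15 replication genes were higher in the positive fraction and none was lower, against 27.6% and 25.8% of all tested genes (53.4% in either direction). Mcm3 again had the largest log2 difference, 2.90 (SE 0.16, edgeR adjusted p = 2.89e-11), then Gins2 at 2.59, Mcm6 at 1.80, Mcm2 at 1.71, Mcm5 at 1.63 and Pcna at 1.00. Rrm1 at 0.68, Mcm4 at 0.61 and Mcm7 at 0.40 completed the 9. With the animal as a replicate block, Ccne2 (-0.52, edgeR adjusted p = 0.00243) and Rrm2 (-0.52, edgeR adjusted p = 0.0474) were lower.

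Among the mitosis genes, Cdk1 and Top2a were higher in the positive fraction under both treatments. Cdk1 held 4.56, 13.4, 9.5 and 4.76 normalised counts in Input PBS against 35.3 to 48.4 in Positive PBS, a log2 difference of 2.39 (SE 0.35, edgeR adjusted p = 2.05e-05), and the difference was 2.50 (SE 0.32, edgeR adjusted p = 3e-06) in LPS animals. Top2a held 20, 25.8, 19.9 and 22.9 against 41.9 to 66.4, a log2 difference of 1.23 (SE 0.28, edgeR adjusted p = 0.00141), and 1.87 (SE 0.27, edgeR adjusted p = 1.04e-05) in LPS animals. Both genes passed the filter only through the positive groups, where they are high.

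In PBS animals the full count was 3 mitosis genes higher, with Tpx2 at 0.42 (edgeR adjusted p = 0.0403), and 1 lower, Bub1b at -0.87 (edgeR adjusted p = 0.00438), against 21% and 18.8% of all tested genes. Both here and in LPS animals the higher counts include Cdk1 and Top2a, so the shares called higher are no fair reference for them. The Tpx2 call was lost under each of 5 other settings (total counts scaling, no filter, only the libraries compared, all 18 libraries, and without animals 506 and 507, at 0.29 to 0.42) and without any of Input PBS 268, 272 or 506 or Positive PBS 272, 273 or 506 (0.38 to 0.42). In LPS animals 6 were higher, with Kif23 at 1.24, Aurka at 0.90, Cdc20 at 0.79 and Tpx2 at 0.47 beside Cdk1 and Top2a, and 3 were lower, Nusap1 at -0.91, Ccna2 at -0.79 and Prc1 at -0.56, against 27.6% and 25.8% of all tested genes. Cdc20 was not called without Input LPS 267 (0.66, edgeR adjusted p = 0.0539), Input LPS 507 (0.69, edgeR adjusted p = 0.0523) or animals 506 and 507 (0.73, edgeR adjusted p = 0.0663), and Tpx2 not with total counts scaling (0.29, edgeR adjusted p = 0.0934) or without animals 506 and 507 (0.45, edgeR adjusted p = 0.0708). Input LPS 270 held 178 counts of Ccna2 against 55.9 to 79 in the other Input LPS libraries, and without it the Ccna2 difference was -0.30 (edgeR adjusted p = 0.332). Ccna2 also lost its call without Positive LPS 266, 267 or 507 (-0.81 to -0.69), with limma (-0.65) and with only the libraries compared (-0.78). Mki67 was not called in either treatment, at 0.57 (95% interval -0.18 to 1.31) and -0.25 (95% interval -0.94 to 0.44). A fit without a filter called Tk1 higher in the positive fraction of PBS animals (1.53, SE 0.38, edgeR adjusted p = 0.00369) and Aurkb in that of LPS animals (1.99, SE 0.45, edgeR adjusted p = 0.0011). For Aurkb, Positive LPS 507 held 55.3 against 14.4 to 23.2 in the other Positive LPS libraries.

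**Figure D5:**
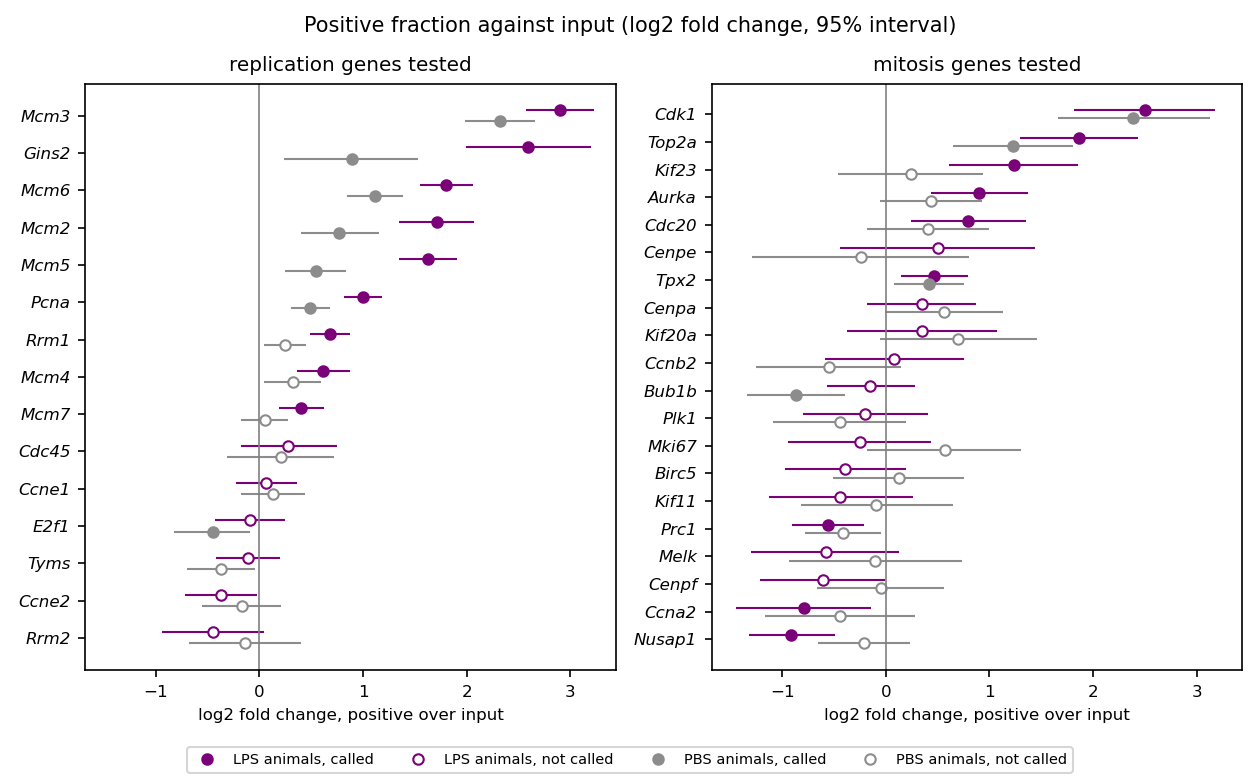
Log2 fold change, positive fraction over input (x axis), with its 95% interval for each tested replication (left) and mitosis gene (right), in LPS animals (purple) and PBS animals (grey). Filled points are called genes, and Mcm3, Gins2 and Cdk1 have the largest values in LPS animals, from 2.50 to 2.90. Cdk1 and Top2a passed the filter only through the positive groups, where they are high.

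Other genes of the same machinery were read from 3 further lists. Of 43 tested genes for replication outside the 17, 25 rose in the positive fraction after LPS and none fell, with a median log2 fold change of 0.46, and 10 rose in input, against 19% and 7.16% of all tested genes called higher. The largest rises among those averaging at least 50 normalised counts were Gins1, a further GINS subunit, at 2.29 (SE 0.29), Uhrf1, which maintains DNA methylation behind the fork, at 1.83 (SE 0.25), and Cdt1, which loads the MCM ring with Cdc6, at 1.253 (SE 0.18). In input the largest were Pole, a DNA polymerase, at 1.36 (SE 0.25), Gins1 at 0.97 (SE 0.30) and Uhrf1 at 0.86 (SE 0.27). With the animal as a replicate block Gins1 (1.03, limma adjusted p = 0.0888) and Uhrf1 (0.80, limma adjusted p = 0.21) were not called in input. Leaving out a library ended the input call of Gins1 in 6 cases (Input LPS 266, 267, 270 or 507, Input PBS 272 or 506, at 0.75 to 1.05) and that of Uhrf1 also in 6 (Input LPS 267 or 270, Input PBS 268, 272, 273 or 506, at 0.69 to 0.90).

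Of 38 tested genes for mitosis outside the 24, 14 rose in the positive fraction and none fell, with a median of 0.42, and 4 rose in input, against the same 19% and 7.16%. Kif2c, a kinesin that removes tubulin from microtubule ends, had the largest rise, from 10.8 ± 4.21 (SD, n = 4) to 221 ± 27.8 (SD, n = 5) normalised counts, a log2 fold change of 4.36 (SE 0.42, edgeR adjusted p = 3.12e-07). It passed the filter and the mean of 50 counts only through Positive LPS, the group where it is high. In input Kif2c went from 6.12 ± 5.94 (SD, n = 4) to 14.7 ± 6.17 (SD, n = 4) and was not called. Next were Hmgb2, a chromatin protein, at 1.41 (SE 0.24) and Tacc3, a spindle protein, at 0.88 (SE 0.17), both of which also rose in input, at 1.02 and 0.65. Ncapd2, a condensin subunit, rose by 0.47 in input. The input calls were lost for Hmgb2 without Input LPS 270 (0.77, edgeR adjusted p = 0.0558), for Tacc3 without Input LPS 270 (0.56, edgeR adjusted p = 0.0633) or Input PBS 272 (0.60, edgeR adjusted p = 0.0568), and for Ncapd2 without Input LPS 266, 267 or 270 or Input PBS 272 or 273 (0.40 to 0.47).

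The regulators of the step from G1 to S phase were mixed. Of 30 tested, 8 rose and 1 fell after LPS among ribosome-bound RNA while 3 rose in input, with medians of 0.15 and 0.11. The shares over all tested genes were 19% for a rise and 14.9% for a fall among ribosome-bound RNA, and 7.16% for a rise in input. Cdk2, the kinase partner of cyclin E, rose in both fractions, at 1.13 (SE 0.16) and 0.84 (SE 0.17), and Cdk4, the partner of the D cyclins, rose in the positive fraction at 0.50 (SE 0.13) and stood at -0.23 in input, a difference of 0.73 (edgeR adjusted p = 0.0235).

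Cdkn1a, which encodes the cell cycle inhibitor p21, rose in both, from 1960 ± 322 (SD, n = 4) to 6036 ± 2061 (SD, n = 5) in the positive fraction and from 1533 ± 293 (SD, n = 4) to 5427 ± 2121 (SD, n = 4) in input. The log2 fold changes were 1.62 (SE 0.25, edgeR adjusted p = 5.88e-05) and 1.82 (SE 0.26, edgeR adjusted p = 9.86e-05). Gadd45b, a stress response gene, rose in the positive fraction at 0.62 (SE 0.17), Cdkn1c, the inhibitor p57, fell there at -0.95 (SE 0.14), and Tfdp2, an E2F partner, rose in input at 0.43 (SE 0.11).

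The D cyclins did not pass in the positive fraction, at 0.06 for Ccnd1, -0.28 for Ccnd2 and 0.26 for Ccnd3, the last at an adjusted p of 0.036 but under the fold limit. The inhibitors Cdkn1b and Cdkn2c stood at -0.16 and 0.15. Cdk6 was below the filter, at a mean of 29.5 ± 14.9 (SD, n = 4) and 38.1 ± 11.8 (SD, n = 5).

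Markers of other cells that moved with LPS are given beside these results, and their part in them was not tested. They are read against 19% of all tested genes called higher and 14.9% called lower in the positive fraction. The 10 neutrophil markers summed to 34.3 to 148 in Positive PBS and 323 to 970 in Positive LPS. Of these, 5 of the 5 tested rose, and Ly6g was at 0 in every library. Among the 5, Ngp, Retnlg and Mmp8 passed the filter only through LPS groups, where they are high. The 19% is therefore no fair reference for this list. The 10 neural progenitor markers summed to 5441 to 7636 in Positive PBS and 4662 to 5132 in Positive LPS, with 3 lower and none higher. Dlx1 and Sox4 had the highest Positive PBS means among them, 1730 and 1350. Nes was among the 3 lower, at -0.81, but was called higher in input, at 0.73. Whether these markers came from dividing cells was not tested. The 10 oligodendrocyte precursor markers summed to 5046 to 6126 in Positive PBS and 3172 to 4006 in Positive LPS, with 5 lower and 1 higher. The 1 higher was Pdgfra, at a log2 fold change of 0.34. The 5 lower were Gpr17 at -2.39, Sox10 at -0.92, Olig1 at -0.86, C1ql1 at -0.79 and Cspg4 at -0.75. The 9 lymphocyte markers summed to 281 to 391 in Positive PBS and 176 to 262 in Positive LPS, of which Cd4 held most.

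The other marker lists moved in part as well. Among 8 microglial markers 2 were higher and 4 lower, with P2ry12, a purinergic receptor, at -2.47. Of 6 astrocyte markers 1 was higher, Gfap at 1.95, and 2 were lower. Of 4 monocyte markers tested Ms4a4c stood at 3.14 and Ccr2 at -2.33. Ms4a4c passed the filter only through Positive LPS and Ccr2 only through Positive PBS, in each case the group where it is high. Of 7 endothelial markers Cldn5 was higher at 0.51 and 3 were lower, with Tek at -1.86 and Flt1 at -1.29 among them. Lower values also passed the test in 3 of 7 neuronal and 2 of 6 oligodendrocyte markers, with Mog at -1.28.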

How the data were processed

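RNA of input and positive fractions was sequenced from strand-specific libraries. The authors trimmed reads, aligned them by strand to mouse Mm10 in Strand NGS and deposited estimated counts for each gene model of RefSeq (81.7% of nonzero values were not whole). The authors' log2 columns were not used. Counts were rounded, scaled by median-of-ratios size factors (15766 genes, 0.766 to 1.324; a count of 3 equals 2.27 to 3.92 normalised counts) and fitted in edgeR 4.0.16 (R 4.3.3; glmQLFit, glmQLFTest) with 1 mean per group over 17 libraries and 5 contrasts. Standard errors and 95% intervals come from that fit. P-values rest on the spread between libraries of the same group, each from another animal. This fit held no animal term, so the input and positive libraries of an animal were treated as independent.

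Members, gene lists and tests were chosen with earlier results of these data known. All 41 genes are named, and of 3 further lists the 3 largest called rises and falls averaging at least 50 counts, and 9 fixed regulators. Input and positive libraries of an animal share a lysate, and their deviations from the group means correlated at 0.16 to 0.519 over genes, so numbers pair samples, and blocked values are given where they change a call. Alternatives were other scalings and filters, DESeq2 1.42.0, limma 3.58.1 on log2(count + 1), sex as a covariate, all 18 libraries and leaving out animals or libraries. For the LPS effects the replicate block was fitted with voom in limma, which weights log2 counts by precision, and a correlation within animals. For the other contrasts it was an edgeR fit with a term for each animal. For each gene the promoter window nearest to the 5′ end of its model was used, from RefSeq GRCm38.p6, and exon lengths are GENCODE M21. The 3-count limit covers counting error only.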

Additional observations from a re-analysis of the deposited data

Results flagged for a closer look

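In 8 of 140 sets (35 tested genes in 4 groups) 1 library lay farther from the rest of its group than Dixon's limit allows, and chance alone flags about 5% of sets. Cenpe held 260 normalised counts in Positive LPS 266 against 40.2 to 97.2 in the other 4. Rrm1 held 855 in Positive PBS 506 against 686 to 713. Ccne2 held 276 in Positive LPS 271 against 157 to 186, and 151 in Input PBS 272 against 220 to 229. Mki67 held 17.5 in Input PBS 272 against 29.5 to 31.3, and Tyms 495 in Input PBS 268 against 386 to 403. Input LPS 270 was high in Mcm7, with 855 against 687 to 704, and in Plk1, with 65.7 against 33.2 to 36.8.

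The LPS effect differed between the fractions by the interaction test for 5 replication genes, with log2 differences of 1.71 for Gins2, 1.08 for Mcm5, 0.94 for Mcm2, 0.68 for Mcm6 and 0.51 for Pcna. Of these, Mcm5 and Gins2 were still called without animals 506 and 507.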

How the results depend on the processing

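The count of replication genes called for the LPS effect in the positive fraction stayed within 1.5 times of 11 under every alternative run, and was 9 without animals 506 and 507. With that setting, 3 mitosis genes were called there in place of 5, and 2 replication genes for the difference between fractions in place of 5. Mitosis genes called for LPS in input numbered 1 in place of 0 with DESeq2 and with only the libraries compared. Leaving out 1 library at a time gave 11 to 12 replication and 2 to 5 mitosis genes for LPS in the positive fraction, 2 to 4 and 0 to 1 in input, 5 to 8 and 3 to 6 for positive against input in PBS animals, 9 to 10 and 8 to 10 in LPS animals, and 4 to 7 and 0 to 0 for the difference. With the replicate block these 10 counts were 11, 4, 3, 0, 8, 4, 11, 9, 7 and 0, and the block changed no call of the 35 tested genes beside those given with it in the text.

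Some LPS values near 0 in the positive fraction changed sign and none of them was called. With all 18 libraries Birc5, Ccne1 and Plk1 were at 0.03, 0.00 and 0.00, and without animals 506 and 507 Birc5, Ccnb2, Kif20a and Plk1 were at 0.13, 0.05, 0.21 and 0.02. Plk1 was at 0.02 with limma and 0.01 with the replicate block, and Ccne1 at 0.05 with sex as a covariate. Leaving out 1 library gave Birc5 -0.28 to 0.11, Ccnb2 -0.23 to 0.21, Ccne1 -0.10 to 0.07, Ccne2 -0.06 to 0.20, Cenpa -0.03 to 0.23, Kif20a -0.42 to 0.10 and Plk1 -0.24 to 0.11. The cause was not tested.

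Scaling by total counts moved the median of all tested genes for positive against input to -0.12 in PBS and -0.20 in LPS animals, and all 18 libraries moved it to -0.12 and -0.11. The share of calls that were higher then went from 52.8% to 38.1% and 37.6% in PBS animals, from 51.7% to 35.3% and 43.2% in LPS animals, and for the difference from 79.4% to 67.7% and 83.5%. Mcm7 in LPS animals (total counts and all 18 libraries) and Tpx2 in PBS animals (both) and in LPS animals (total counts) then lost their calls.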
